A study of Mus musculus with 12 samples.

Results

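The genes described here encode the actin cytoskeleton and the focal adhesions of NIH-3T3 cells, an established line of mouse embryonic fibroblasts. They were chosen by symbol: 51 genes for actins, actin-binding proteins, non-muscle myosin II, adhesion plaque proteins, integrins, signalling proteins and kinases that act on them, the transcription factor Srf and the intermediate filament vimentin. All 51 stood among the 17419 genes of the deposited table, and 49 of them averaged 100 counts or more per library. Cnn1 (mean count 8.67) and Itgb3 (mean count 19.3) did not, and they enter no summary of labelling. The study measured RNA synthesis by SLAM-seq, in which cells take up the uridine analogue 4-thiouridine (4sU) and iodoacetamide (IAA) alkylates it after extraction, so that RNA made during labelling is read with T-to-C conversions. Wild-type cells in DMEM with 10% NCS were left without 4sU (no4sU) or labelled at 800 µM for 1 of 5 durations: 15, 30, 60, 90 and 120 min. Each of the 6 groups had 2 libraries, A and B, and where values of both are given they are written A/B. The labels do not say that A and B came from separate cultures, so p-values and errors measure the spread between these libraries, which may be technical.

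Actin monomers are held in reserve by thymosins, delivered to filament ends by profilin and returned by cofilin, which severs filaments. Tropomyosins, calponins and transgelins decorate filaments, non-muscle myosin II contracts them, and alpha-actinins and filamins cross-link them. Talin, vinculin, zyxin and their partners tie the bundles to integrins, which hold the extracellular matrix. Srf, with cofactors that sense free actin monomer, drives the transcription of many of these genes through a DNA element called the CArG box, and in fibroblasts the set is known for its response to serum and stretch.

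Libraries held between 9917026 and 13739380 reads, and the members took 2.81% to 3.10% of them. Levels are given as CPM, counts per 1000000 reads of the library after scaling by TMM, edgeR's normalisation, and so are shares of a library. In such bulk libraries fewer cells and less RNA per cell cannot be told apart. The 10 fibroblast markers all lay above 1 CPM, from 89.6 to 7094 CPM (Fn1), whereas no epithelial marker did. Of the 5 muscle markers in the table only Smtn passed 1 CPM (62.2), and the smooth and skeletal muscle genes Myh11, Des, Ckm and Myh3 stayed below it. Of the endothelial markers 1 of 4 (Cdh5, 1.18 CPM) and of the blood markers measured 1 of 3 (Cd68, 5.50 CPM) passed it. The 2 unlabelled libraries stood apart from each other: a chi-square per gene between replicates was 11 there and 1.58 to 2.01 in the labelled pairs. Among members, the A-to-B log2 ratio of the unlabelled libraries went with gene length (Spearman rho = -0.707 over 49 genes, -0.576 over all genes). Each comparison with no4sU is therefore also given without either of them. Counts that were not whole occurred for 47 of the 51 members in at least 1 library and for Actb, Actg1, Tpm3, Tpm4, Myl12a and Myl12b in all 12. These are genes with close paralogs, and their counts are uncertain by the share that the counting may have divided between copies.

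Because Srf binds the CArG box, the promoter windows of the members were searched for it first. The element has 10 bases, fixed C and G pairs around an A/T-rich core, and reads the same on both strands; it overlapped no other motif searched. RefSeq gave a window from 250 bases before to 50 after the start for 44 members (build GRCm38.p6), and 9 of the 44 (20.5%) held a box, against 488 of 27025 genes (1.81%) in the same table. They were Srf itself, Actg1, the myosin light chains Myl6 and Myl9, calponin Cnn2, vinculin (Vcl), the LIM proteins Fhl2 and Lima1, and Rnd3. No window was available for Actb, Pxn, Parva, Itgb3, Rock1, Itga6 and Tagln, so these members were not searched. The boxes are shown in capitals within 10 bases of flank on each side, 5′ to 3′ in the direction of the gene.
Myl9: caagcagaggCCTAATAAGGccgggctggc
Myl6: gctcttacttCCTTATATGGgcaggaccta
Cnn2: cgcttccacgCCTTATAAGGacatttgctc
Vcl: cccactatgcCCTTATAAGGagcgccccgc
Actg1: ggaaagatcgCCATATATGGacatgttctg
Srf distal: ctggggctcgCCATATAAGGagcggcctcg
Srf proximal: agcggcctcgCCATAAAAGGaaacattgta
Lima1: ctcactttgtCCTTATAAGGctatcctgtt
Fhl2 upstream start: catttagagaCCAAAAAAGGcttgcaggag
Fhl2 downstream start: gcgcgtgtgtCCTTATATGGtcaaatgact
Rnd3: ctcccaggctCCATAAAAGGggaggaggcg
In order, these lie at chr2:156775293-156775322, plus strand; chr10:128493040-128493069, minus strand; chr10:79988534-79988563, plus strand; chr14:20929161-20929190, plus strand; chr11:120348566-120348595, minus strand; chr17:46556225-46556254, minus strand, and chr17:46556205-46556234, minus strand; chr15:99820177-99820206, minus strand; chr1:43196838-43196867, minus strand, and chr1:43163973-43164002, minus strand; and chr2:51149192-51149221, minus strand. Each box matched the letters of the motif in the reference, which is a description and not a measured binding site. A window without a match says only that the letters are not in it.

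For 3 of these genes, chosen because they span the labelling described next from the lowest to the highest value, 200 bases of the promoter are given with every box in capitals. Those of Myl9 lie at chr2:156775214-156775413, plus strand, those of Srf at chr17:46556213-46556412, minus strand, and those of Rnd3 at chr2:51149162-51149361, minus strand. The flank of the proximal Srf box runs beyond its stretch.
Myl9 promoter: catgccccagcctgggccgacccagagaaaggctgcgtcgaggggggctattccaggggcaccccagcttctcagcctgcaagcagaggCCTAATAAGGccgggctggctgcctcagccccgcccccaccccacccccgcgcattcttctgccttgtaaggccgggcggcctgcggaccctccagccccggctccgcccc
Srf promoter: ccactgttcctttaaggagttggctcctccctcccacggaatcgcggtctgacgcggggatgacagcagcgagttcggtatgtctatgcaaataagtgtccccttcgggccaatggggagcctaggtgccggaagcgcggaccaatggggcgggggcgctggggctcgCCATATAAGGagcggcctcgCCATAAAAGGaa
Rnd3 promoter: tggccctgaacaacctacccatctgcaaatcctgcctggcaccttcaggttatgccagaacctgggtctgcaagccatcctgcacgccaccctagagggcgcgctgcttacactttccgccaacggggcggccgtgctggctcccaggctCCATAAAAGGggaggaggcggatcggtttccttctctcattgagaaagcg

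Labelling was measured by the new-to-total ratio (NTR), the estimated share of a gene's RNA that was made since 4sU was added, from 0 (all old) to 1 (all new). As a set the members held less new RNA than the median gene. Their median NTR (mean ± SD of the 2 libraries) was 0.0080 ± 0.0028 at 15 min, where that of the 9065 genes averaging 100 counts or more was 0.01 ± 0.0047. After 30 min it was 0.0348 ± 0.0021, and that of all genes 0.0520 ± 0.0012. After 60 min the members had 0.0841 ± 0.0034 and all genes 0.1549 ± 0.0041. After 90 min these were 0.1187 ± 0.0093 and 0.2444 ± 0.0140, and after 120 min 0.1690 ± 0.0049 and 0.3539 ± 0.0052. The distance between the medians lay within the SD at 15 min and above it from 30 min on. At 120 min 40 of the 49 members lay below the all-gene median. The A and B values of the members ranked alike at 120 min (Spearman rho = 0.986 over 49 genes measured in the same pair of libraries).

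**Figure D1:**
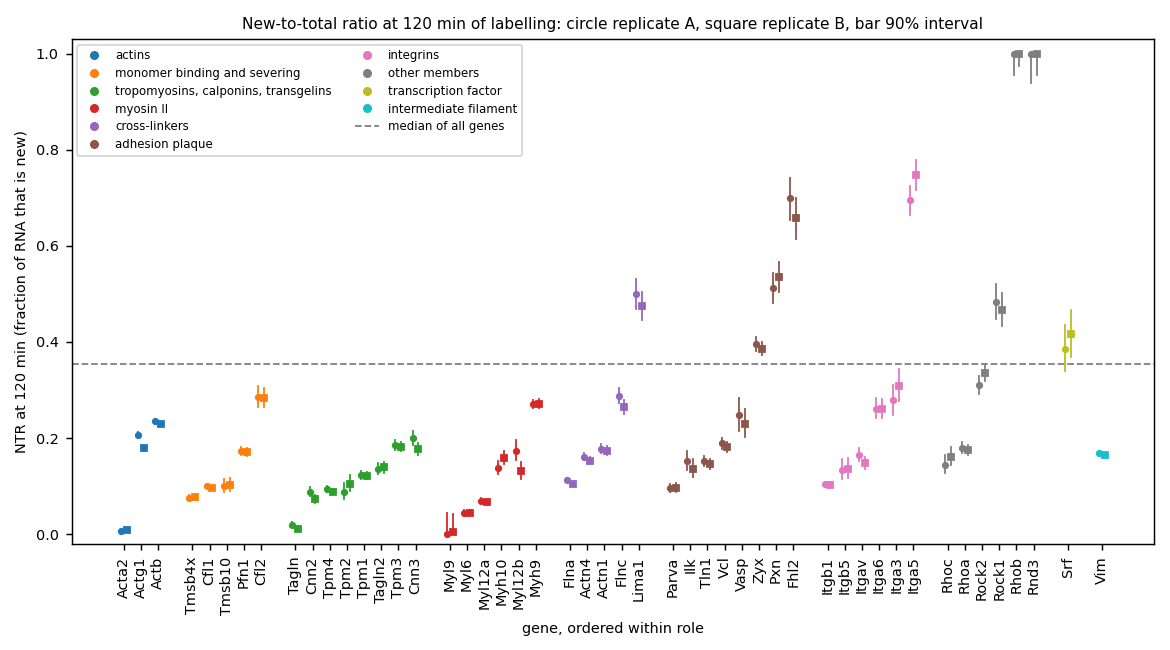
NTR (fraction, from 0 to 1) of the 49 members averaging 100 counts or more after 120 min of 4sU, grouped by role; circles are replicate A and squares replicate B, bars the deposited 90% interval, and the dashed line the all-gene median. Myl9, Acta2, Tagln and Myl6 lie below 0.05, and Fhl2, Itga5, Rhob and Rnd3 lie at or above 0.6.

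Within the set the NTR ran from end to end of its scale. A value below 0.2 was seen for 32 members (24.0% of all genes had one), and 4 members reached 0.6 or more (25.2% of all genes). Only 23 of the 9065 genes (0.254%) were below 0.05 at 120 min, and 4 of them were members: Myl9, Acta2, Tagln and Myl6. Myl9 ranked 1, Acta2 ranked 2 and Tagln ranked 4 from the lowest of all genes.

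The actins lay far apart in labelling. Acta2, smooth muscle alpha-actin and the actin of contractile stress fibres (ENSMUSG00000035783, chr19:34241090-34255590 on the minus strand; GENCODE M21, GRCm38, as for all genes here), had NTR values of 0.0043/0.0023 (15 min), 0.0084/0.0042 (30 min), 0.0054/0.0034 (60 min), 0.0054/0.0019 (90 min), 0.0064/0.0079 (120 min). Its values at 120 min had deposited 90% intervals of 0.0047 to 0.0086 and 0.0061 to 0.0102, both clear of 0, and they lay within the range of the 2 libraries at 30 min. Actb, cytoplasmic beta-actin (ENSMUSG00000029580, chr5:142903115-142906754 on the minus strand), had NTR values of 0.0165/0.0124 (15 min), 0.0562/0.0543 (30 min), 0.107/0.11 (60 min), 0.171/0.143 (90 min), 0.236/0.229 (120 min), higher at each longer duration in both libraries. Actg1, cytoplasmic gamma-actin, followed it at 0.016/0.0094 (15 min), 0.0487/0.0524 (30 min), 0.0926/0.0997 (60 min), 0.146/0.12 (90 min), 0.206/0.178 (120 min). The pair lay below the all-gene median of 0.3539 at 120 min.

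Transgelin (Tagln, ENSMUSG00000032085, chr9:45929619-45936058 on the minus strand), a calponin relative bound along actin filaments, stood with Acta2 at 0.0038/0.0017 (15 min), 0.0087/0.0137 (30 min), 0.0076/0.0108 (60 min), 0.004/0.0067 (90 min), 0.0192/0.011 (120 min), with no order across durations. Myl9, a regulatory light chain of myosin II (ENSMUSG00000067818, chr2:156775420-156781658 on the plus strand), was at 0/0.0078 (15 min), 0/0 (30 min), 0/0.0112 (60 min), 0.009/0.0091 (90 min), 0/0.0041 (120 min), which is 0 in 5 of the 10 labelled libraries. With a mean count of 127 its intervals were wide, and at 120 min they reached 0.0445 and 0.0411. Myl6, the essential light chain, was at 0.0106/0.0028 (15 min), 0.024/0.0238 (30 min), 0.038/0.0337 (60 min), 0.0478/0.0424 (90 min), 0.0441/0.0445 (120 min). The regulatory light chain Myl12a was at 0.0087/0.0037 (15 min), 0.0186/0.0197 (30 min), 0.0363/0.0407 (60 min), 0.0533/0.0545 (90 min), 0.0694/0.066 (120 min), higher at each longer duration in both libraries. At 120 min Myl12b (0.173 and 0.131) and the heavy chain Myh10 (0.138 and 0.159), overlapped, and the heavy chain Myh9 (0.271 and 0.272) was highest. The median of the 6 myosin II genes was 0.108.

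The tropomyosins, which wrap filaments and govern access of myosin and cofilin, all lay below 0.2 at 120 min. Tpm4 was at 0.0073/0.0013 (15 min), 0.0225/0.0201 (30 min), 0.0396/0.043 (60 min), 0.0648/0.0601 (90 min), 0.0938/0.0883 (120 min), and Tpm2 at 0/0.0021 (15 min), 0.0105/0.0181 (30 min), 0.0669/0.0491 (60 min), 0.0616/0.0614 (90 min), 0.0878/0.105 (120 min). Tpm1 was at 0.0158/0.012 (15 min), 0.0402/0.0507 (30 min), 0.0813/0.0756 (60 min), 0.0947/0.0951 (90 min), 0.123/0.122 (120 min), and Tpm3 at 0.0136/0.0061 (15 min), 0.0267/0.0348 (30 min), 0.0831/0.0787 (60 min), 0.132/0.127 (90 min), 0.185/0.182 (120 min). At 120 min Tpm4 and Tpm2 overlapped, whereas Tpm3 lay above the other three in both libraries. The tropomyosins, calponins and transgelins had a median of 0.110 over 8 genes, from Tagln to Cnn3 (0.188).

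The proteins that handle actin monomer were also labelled slowly, with a median NTR of 0.101 at 120 min. The thymosin Tmsb4x was at 0.0096/0.005 (15 min), 0.0218/0.0163 (30 min), 0.0291/0.0366 (60 min), 0.0495/0.0438 (90 min), 0.0745/0.0777 (120 min), and Tmsb10 at 0.0115/0.0082 (15 min), 0.0345/0.0259 (30 min), 0.0612/0.0591 (60 min), 0.0711/0.0712 (90 min), 0.1/0.101 (120 min). Profilin Pfn1 was at 0.172 and 0.171 at 120 min. All lay below the all-gene median, as did the ubiquitous cofilin Cfl1 at 0.0122/0.0085 (15 min), 0.0294/0.0297 (30 min), 0.0539/0.0577 (60 min), 0.0756/0.073 (90 min), 0.0998/0.0956 (120 min). Its paralog Cfl2, the cofilin best known from muscle, was at 0.0137/0.012 (15 min), 0.0673/0.0793 (30 min), 0.156/0.198 (60 min), 0.25/0.211 (90 min), 0.286/0.283 (120 min), above Cfl1 in both libraries at 120 min. Among the cross-linkers the filamin Flna was lowest (0.113 and 0.104) and Lima1, a LIM protein that bundles filaments, highest (0.5 and 0.474), around a median of 0.176.

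Adhesion plaque genes had a median of 0.212 and split widely. Parva, the parvin that joins integrin-linked kinase to actin, was lowest at 0.0954 and 0.0966, and its partner Ilk was at 0.151 and 0.136. Talin (Tln1, 0.152 and 0.146) and vinculin (Vcl, 0.189 and 0.181) also stayed low, whereas zyxin (Zyx) was at 0.395 and 0.386 at 120 min. Paxillin (Pxn), a scaffold of the plaque, was at 0.0099/0.0171 (15 min), 0.0613/0.0768 (30 min), 0.2/0.211 (60 min), 0.327/0.321 (90 min), 0.513/0.535 (120 min). Fhl2, a LIM protein of adhesions and nucleus (ENSMUSG00000008136, chr1:43123074-43196984 on the minus strand), was the highest of the plaque genes, with NTR values of 0.0061/0.0091 (15 min), 0.0655/0.0983 (30 min), 0.296/0.249 (60 min), 0.5/0.452 (90 min), 0.699/0.657 (120 min).

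The integrins had a median of 0.208, with the chains of a single receptor at either end. Itgb1, the common beta chain, was the lowest at 0.0045/0.0024 (15 min), 0.0132/0.019 (30 min), 0.04/0.0448 (60 min), 0.0754/0.0719 (90 min), 0.104/0.103 (120 min), while Itga5, which pairs with it as the fibronectin receptor (ENSMUSG00000000555, chr15:103344286-103366763 on the minus strand), was the highest at 0.0241/0.006 (15 min), 0.0871/0.0784 (30 min), 0.259/0.258 (60 min), 0.475/0.492 (90 min), 0.695/0.749 (120 min). Every labelled library from 30 min on placed Itga5 above Itgb1. The remaining alpha chains Itga3 (0.279 and 0.309), Itgav (0.165 and 0.147) and Itga6 (0.261 and 0.26) and the beta chain Itgb5 (0.134 and 0.136) lay between them at 120 min. Itgb3, at a mean count of 19.3, was listed at 0.236 and 0.864 in the 2 libraries at 120 min and was not readable.

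The highest NTR values of all members were those of Rnd3 and Rhob. Rnd3 (ENSMUSG00000017144, chr2:51130438-51149111 on the minus strand) had NTR values of 0.106/0.0777 (15 min), 0.449/0.447 (30 min), 0.981/0.957 (60 min), 1/1 (90 min), 1/1 (120 min), the ceiling of the scale from 90 min on. Rhob, known as an immediate early gene (ENSMUSG00000054364, chr12:8497661-8500009 on the minus strand), stood at 0.0973/0.0922 (15 min), 0.355/0.3 (30 min), 0.603/0.583 (60 min), 0.82/0.812 (90 min), 0.999/1 (120 min). The kinases Rock1 and Rock2, which phosphorylate the myosin phosphatase and myosin light chains, were at 0.0037/0.0089 (15 min), 0.0473/0.0493 (30 min), 0.186/0.172 (60 min), 0.283/0.297 (90 min), 0.484/0.467 (120 min) and at 0.0044/0.0001 (15 min), 0.0338/0.0393 (30 min), 0.152/0.163 (60 min), 0.259/0.24 (90 min), 0.31/0.336 (120 min), respectively, Rock1 being higher in both libraries at 120 min. Srf (ENSMUSG00000015605, chr17:46548329-46556175 on the minus strand) was at 0.0061/0.0109 (15 min), 0.0542/0.0696 (30 min), 0.177/0.175 (60 min), 0.239/0.265 (90 min), 0.385/0.417 (120 min), near the all-gene median at 120 min. Vim, vimentin, was at 0.169 and 0.166 at 120 min.

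**Figure D2:**
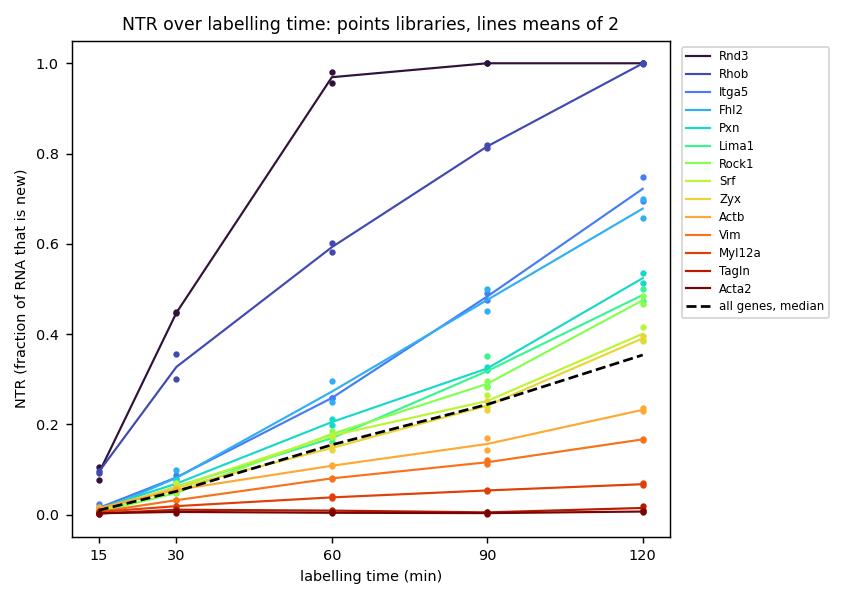
NTR (fraction) against labelling time (min) for selected members, 1 point per library, with lines through the means of 2 and the all-gene median dashed. Rnd3 and Rhob climb to 1, Itga5 reaches 0.722 and Fhl2 0.678 at 120 min, and Acta2 and Tagln stay below 0.02 throughout.

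The 9 members with a CArG box did not share a labelling rate: their NTR at 120 min was 0.0021 (Myl9), 0.0443 (Myl6), 0.0807 (Cnn2), 0.185 (Vcl), 0.192 (Actg1), 0.401 (Srf), 0.487 (Lima1), 0.678 (Fhl2) and 1.00 (Rnd3). They covered the same range as the whole set.

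An RNA half-life follows from the NTR if the level is constant, as ln 2 times the labelling time over -ln(1 - NTR), for values from 0.01 to 0.99. The median of 45 members was 455 ± 14.5 min (SD, n = 2 libraries) at 120 min. At 60 min it was 474 min over 46 members. Rnd3 was the shortest, 11.8 ± 1.92 min at 60 min, followed by Rhob at 46.3 ± 1.8 min. Both were too close to wholly new at 120 min for an estimate, and Rnd3 was already near that ceiling at 60 min. Their errors cover 2 libraries at 1 duration, and the estimate depends on the duration used. Both genes were also called as falling with labelling time, whereas the formula takes the level as constant. Actb was at 315 ± 7.12 min and Actg1 at 392 ± 44.3 min at 120 min, and Vim at 455 ± 6.34 min. Tagln gave 5905 ± 2284 min at 120 min and had no estimate at 60 min. Its NTR had no order across durations, so this value does not set even the order of magnitude. Myl6 gave 1836 ± 12 min at 120 min but 1143 ± 98.8 min at 60 min. The small SD of Myl6 at 120 min therefore covers only the 2 libraries and not the dependence on duration.

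The 60 and 120 min estimates differed. Of the 44 members with both, 27 were shorter at 120 min with no overlap of the libraries, 8 were longer and 9 overlapped. The same count was not made over all genes, so it does not set the members apart. All 8 members with an NTR above 0.3 at 120 min were among the shorter. Itga5 went from 139 ± 0.443 min to 65.1 ± 6.87 min, Fhl2 from 132 ± 19.1 min to 73.5 ± 5.89 min, Pxn from 181 ± 8.2 min to 112 ± 5.14 min, and Rock1 from 211 ± 12.9 min to 129 ± 4.58 min. The longer ones were Tmsb10, Cfl1, Cfl2, Tpm1, Cnn2, Tagln2, Myl6 and Myl12a. A separate estimate came from the decline of old RNA, the CPM times (1 - NTR), over the 10 labelled libraries. It gave 50.5 min for Itga5, 63.8 for Fhl2, 94.6 for Rock1, 398 for Actb and 448 for Actg1. For 9 members the old CPM climbed by more than 2 SE: Acta2, Tmsb4x, Tmsb10, Cfl1, Tpm4, Tagln, Myl6, Myl12a and Itgb1. A CPM is a share of a library, so such a climb is relative to the other RNAs in it. This count too was made for the members alone.

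At the shortest labelling the members spanned a wide range of levels. Per kilobase of gene length, Actb was highest at 1576 CPM per kb at 15 min, followed by Vim (1378), Actg1 (966), Cfl1 (694), Tmsb4x (661) and Acta2 (437). Srf (19.1), Rnd3 (10.4) and Myl9 (9.96) were among the lowest on this scale. Total RNA, new and old together, was then followed with labelling time. A gene was called where edgeR's quasi-likelihood test gave a Benjamini-Hochberg adjusted p below 0.05 over all genes tested. The trend was the log2 change per hour over the 10 labelled libraries, and it uses no unlabelled library.

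Most members rose with labelling time. Of 51 tested, 34 rose (18.3% of all genes did), 6 fell (19.5% of all genes; 37.8% passed in either direction) and 11 passed in neither. The median trend of the 49 members was 0.0803 log2 per hour, beside 0.0036 over all genes. With the labelled share scaled up, as described next, the medians were 0.0048 over all 51 members tested and 0.0025 over all genes. With library size in place of TMM they were 0.0460 over the same 51 and -0.0307 over all genes. Gene length went with the members' trend at a Spearman rho of -0.383 over 49 genes, and its part in the trend was not tested. By role, 2 of 3 actins, 4 of 5 monomer-binding and severing genes, 8 of 9 tropomyosins, calponins and transgelins, 5 of 6 myosin II genes, 3 of 5 cross-linkers, 5 of 8 plaque genes, 4 of 7 integrins and Vim rose. The 6 that fell were Itga5, Itgb3, Rhob, Rnd3, Rock1 and Rock2. Actg1, Cfl2, Cnn1, Myl9, Flnc, Lima1, Pxn, Vasp, Fhl2, Itga6 and Srf did not pass. An alternative scaled up only the labelled share of each count. The factor per library was the one that takes the rank correlation between a gene's change and its NTR to 0. That scaling removes the relation by construction. Member calls were then 3 higher and 6 lower (651 and 849 of all 11589 genes). Of the 51 slopes, 16 changed sign in a member called before or after this scaling. Sign changes of members called in neither fit were not counted. Where a gene named below is among the 16, its slope on these label-scaled counts is given. For members called in neither fit it is not given, whether or not the sign held. With library size in place of TMM 22 rose and 7 fell (1172 and 3031 of all 11526 genes). Actb, Actn1, Cnn2, Cnn3, Itga3, Itgav, Myh9, Myh10, Pfn1, Tagln2, Vcl and Zyx no longer passed, and Itga6 fell.

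The thymosins were among the steepest rises. Tmsb10 was at 267/246 CPM (no4sU), 226/235 (15 min), 227/265 (30 min), 239/264 (60 min), 263/248 (90 min), 290.1/308 (120 min), with a slope by edgeR (log2 per hour ± SE) of 0.18 ± 0.0275, adjusted p = 1.13e-06. Tmsb4x was at 632/610.4 CPM (no4sU), 565/577 (15 min), 544/594 (30 min), 589/586 (60 min), 620.2/655 (90 min), 679/719.9 (120 min), with a slope of 0.17 ± 0.0211, adjusted p = 3.01e-08. For both genes the 120 min libraries were the highest of the labelled ones. Cfl1, which turns filaments over, was at 1756/1548 CPM (no4sU), 1627/1639.8 (15 min), 1639.8/1633 (30 min), 1688/1699 (60 min), 1786/1776 (90 min), 1885/1883 (120 min) and also rose (0.12 ± 0.0162, adjusted p = 1.79e-07), with both 120 min libraries above all others. Its paralog Cfl2, at 162/168 CPM (no4sU), 168/162 (15 min), 171/179.9 (30 min), 160.5/166 (60 min), 172/168 (90 min), 162/169.7 (120 min), had a slope of -0.01 ± 0.0237, adjusted p = 0.782, and its 15 and 120 min libraries overlapped.

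Acta2 was at 942/770.0 CPM (no4sU), 873/907 (15 min), 818/832 (30 min), 898/902 (60 min), 979.5/1027 (90 min), 1018/1008 (120 min). The 90 and 120 min libraries all lay above the earlier labelled ones, with a slope of 0.15 ± 0.0214, adjusted p = 4.12e-07 by edgeR, and the unlabelled library A also lay above all libraries from 15 to 60 min. Actb was at 3332/2741 CPM (no4sU), 3073/2980.4 (15 min), 3012/2989.7 (30 min), 3043/3029.9 (60 min), 3126/3168 (90 min), 3241/3094 (120 min) and rose (0.04 ± 0.0163, adjusted p = 0.0272; label-scaled -0.01). That call was lost without 30 min B (adjusted p = 0.0522) or 120 min A (0.188). Actg1, at 2006/1707 CPM (no4sU), 1914/1856 (15 min), 1888/1739.5 (30 min), 1847/1807 (60 min), 1862/1938 (90 min), 1929/1867 (120 min), had a slope of 0.02 ± 0.0187, adjusted p = 0.386 (label-scaled -0.05, called lower), and its 15 and 120 min libraries overlapped.

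Tagln stood at 257/220.4 CPM (no4sU), 230.2/239 (15 min), 232/235 (30 min), 255/229 (60 min), 271/272 (90 min), 277/284 (120 min) and rose by 0.17 ± 0.0223, adjusted p = 1.43e-07 (edgeR, log2 per hour). The tropomyosin Tpm4 stood at 767/766 CPM (no4sU), 769/797 (15 min), 750.0/800.4 (30 min), 818/824 (60 min), 854/869 (90 min), 895/924 (120 min) and rose by 0.13 ± 0.0182, adjusted p = 2.43e-07. Tpm1 was at 575/574 CPM (no4sU), 568/590.1 (15 min), 571/574 (30 min), 559/604 (60 min), 579/617 (90 min), 645/665 (120 min) and rose (0.10 ± 0.0209, adjusted p = 0.000269; label-scaled -0.0020). Tpm2 was at 148/139 CPM (no4sU), 147/145 (15 min), 141/143 (30 min), 149/154 (60 min), 156/152 (90 min), 163/159.8 (120 min) and rose (0.09 ± 0.0224, adjusted p = 0.00097; label-scaled -0.02). Tpm3 was at 539/525 CPM (no4sU), 539/543 (15 min), 535/531 (30 min), 543/556 (60 min), 573/592 (90 min), 584/587 (120 min) and rose (0.08 ± 0.0179, adjusted p = 0.000412). In all 4 tropomyosins both 120 min libraries lay above both 15 min libraries, and the slopes were not tested against each other. In the calponin family Cnn2 rose (0.08 ± 0.0214, adjusted p = 0.00229; label-scaled -0.04) and Cnn3 rose (0.07 ± 0.02, adjusted p = 0.004; label-scaled -0.0028), the latter not without 120 min B (adjusted p = 0.0535). Cnn1, at a mean count of 8.67, was at 0.378/0.931 CPM (no4sU), 0.791/0.271 (15 min), 0.755/0.998 (30 min), 0.297/0.98 (60 min), 1.26/0.29 (90 min), 1.39/0.675 (120 min), with a slope of 0.33 ± 0.274, adjusted p = 0.368.

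Of the myosin light chains, Myl12b was at 138/125 CPM (no4sU), 119.9/126 (15 min), 123/126 (30 min), 123/132 (60 min), 138/135 (90 min), 148/157 (120 min) and Myl12a at 794/709.6 CPM (no4sU), 719.9/743 (15 min), 700.4/728 (30 min), 758/774 (60 min), 795/820.2 (90 min), 846/897 (120 min). Their slopes by edgeR were 0.17 ± 0.0255, adjusted p = 9.29e-07 and 0.16 ± 0.0191, adjusted p = 2.75e-08, and for Myl12a the 120 min libraries lay above all other labelled libraries. Myl6 was at 574/475 CPM (no4sU), 494/501 (15 min), 489/478 (30 min), 496/492 (60 min), 530.2/553 (90 min), 574/565 (120 min) and rose (0.13 ± 0.0198, adjusted p = 1.95e-06; label-scaled -0.0028), its 90 and 120 min libraries lying above all earlier labelled ones. Myl9 had a slope of 0.16 ± 0.0716, adjusted p = 0.0719, at 10.6/8.37 CPM (no4sU), 10.7/11.8 (15 min), 9.32/10.8 (30 min), 10.2/11.8 (60 min), 12.8/11.6 (90 min), 10.3/15 (120 min); it passed without 15 min B (adjusted p = 0.0373), without 120 min A (0.0105), and with no4sU taken as time 0. The heavy chain Myh9 rose (0.05 ± 0.0201, adjusted p = 0.0273), a call lost without 30 min A (0.0629), 30 min B (0.0803), 90 min B (0.0792) or 120 min A (0.0636).

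Among plaque genes Ilk (0.13 ± 0.0247, adjusted p = 6.54e-05), Tln1 (0.11 ± 0.0196, adjusted p = 1.1e-05), Parva (0.10 ± 0.0189, adjusted p = 4.64e-05; label-scaled -0.01) and Vcl (0.07 ± 0.0186, adjusted p = 0.00479; label-scaled -0.0089) rose by edgeR. Zyx rose (0.06 ± 0.0197, adjusted p = 0.0204) but not without 30 min B (adjusted p = 0.0774). Pxn was at 125/126 CPM (no4sU), 127/132 (15 min), 131/124 (30 min), 129/128 (60 min), 135/132 (90 min), 135/131 (120 min) and had a slope of 0.03 ± 0.0235, adjusted p = 0.28. Fhl2, one of the fastest to be labelled, was at 84.1/82.3 CPM (no4sU), 79.6/87 (15 min), 79.5/79.1 (30 min), 83.4/77 (60 min), 86.1/77.1 (90 min), 78.7/78.6 (120 min) and had a slope of -0.03 ± 0.0294, adjusted p = 0.515.

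In the integrins the chains of the fibronectin receptor parted. Itga5 was at 202/198 CPM (no4sU), 195/203 (15 min), 197/196 (30 min), 189/192 (60 min), 174/176 (90 min), 165/159 (120 min) and fell (-0.17 ± 0.0216, adjusted p = 3.8e-08 by edgeR), with all 90 and 120 min libraries below every earlier one. Itgb1, at 1009/1096 CPM (no4sU), 1069/1113 (15 min), 1079/1129 (30 min), 1136/1155 (60 min), 1211/1213 (90 min), 1249/1229 (120 min), rose (0.11 ± 0.0169, adjusted p = 1.38e-06). Itgb5, at 99/84.2 CPM (no4sU), 86.9/88.3 (15 min), 90.1/91.5 (30 min), 95.1/92.8 (60 min), 97.8/101 (90 min), 108/98.9 (120 min), also rose (0.13 ± 0.0258, adjusted p = 7.62e-05). Itga3 rose (0.08 ± 0.0273, adjusted p = 0.0162) but not without 15 min B (adjusted p = 0.0656) or 120 min A (0.0905). Itgb3 was at 0.945/1.86 CPM (no4sU), 1.85/2.44 (15 min), 2.27/1.7 (30 min), 2.48/1.81 (60 min), 1.36/1.93 (90 min), 1.02/0.75 (120 min), and its fall (-0.58 ± 0.173, adjusted p = 0.0069) rested on few reads and was lost without 120 min B (0.103).

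Rhob was at 145/136 CPM (no4sU), 153/152 (15 min), 137/142 (30 min), 131/136 (60 min), 126/128 (90 min), 119/118 (120 min) and fell (-0.19 ± 0.0236, adjusted p = 2.58e-08 by edgeR; label-scaled 0.01), and its 120 min libraries were the lowest of all. Rnd3 was at 35.1/36.4 CPM (no4sU), 31.7/30.1 (15 min), 29.2/32.9 (30 min), 25/28.7 (60 min), 27.3/24.2 (90 min), 27.3/24 (120 min) and fell (-0.18 ± 0.0464, adjusted p = 0.00163; label-scaled 0.03), with its unlabelled libraries the highest of all. Rhoa was at 399.9/379 CPM (no4sU), 390.1/398 (15 min), 392/394 (30 min), 414/398 (60 min), 414/407 (90 min), 434/436 (120 min) and rose (0.08 ± 0.0186, adjusted p = 0.000693). Rhoc was at 146/125 CPM (no4sU), 122/128 (15 min), 127/129 (30 min), 128/132 (60 min), 133/140.0 (90 min), 146/151 (120 min) and rose (0.13 ± 0.024, adjusted p = 1.97e-05). The kinase Rock1, at 81.1/112 CPM (no4sU), 111/96.7 (15 min), 103/109 (30 min), 105/99.5 (60 min), 100.4/98.1 (90 min), 87.2/90.6 (120 min), fell (-0.12 ± 0.029, adjusted p = 0.000642), though its unlabelled library A lay below and B above all labelled ones. Rock2 was at 204/281 CPM (no4sU), 274/269 (15 min), 271/269 (30 min), 263/268 (60 min), 262/275 (90 min), 244/259 (120 min), with the unlabelled libraries placed likewise, and its fall (-0.05 ± 0.0206, adjusted p = 0.0412) was lost without 15 min A (adjusted p = 0.0948), 30 min A (0.0674), 30 min B (0.0534), 90 min A (0.0537) or 120 min A (0.355). Srf was at 50.4/45.3 CPM (no4sU), 50.4/49.4 (15 min), 53.4/51.4 (30 min), 52.8/49.9 (60 min), 52.2/53.4 (90 min), 55.5/52.1 (120 min), a slope of 0.05 ± 0.0323, adjusted p = 0.276, and Vim at 4249.7/3867 CPM (no4sU), 4012/4049 (15 min), 3999.5/4100.1 (30 min), 4176/4226 (60 min), 4396/4452 (90 min), 4579/4579.5 (120 min), a rise of 0.11 ± 0.0156, adjusted p = 3.97e-07.

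**Figure D3:**
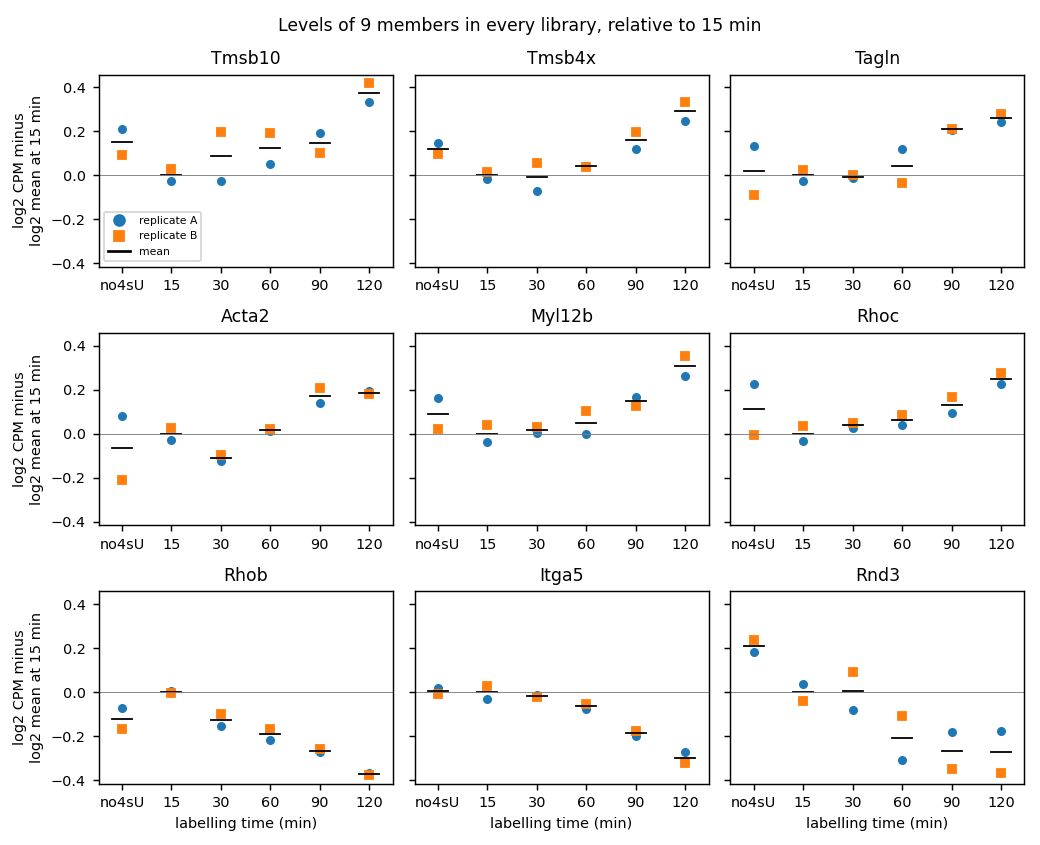
Total RNA of 9 members in every library, as log2 CPM minus the log2 of the 15 min mean, for no4sU and each labelling time (min); circles are replicate A, squares replicate B and lines their means. At 120 min Tmsb10, Tmsb4x, Tagln and Rhoc are the highest of their labelled libraries, and Itga5 and Rhob are the lowest.

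The direction of the trend went with the NTR. Of the 32 members with an NTR below 0.2 at 120 min, 30 rose and 0 fell by edgeR, and their median trend was 0.11 log2 per hour (all 2180 genes of that range: 64.3% rose, 0.0917% fell, median 0.10). From 0.2 to 0.3, 3 of 7 rose and 0 fell (25.1% and 2.22% of all genes). At 0.3 and above, 1 of 10 rose (Zyx) and 5 fell (4.03% and 39.5% of all genes, median -0.07). Spearman's rho between NTR at 120 min and trend was -0.881 over the 49 members and -0.778 over the 9065 genes. With the NTR from replicate A and the log2 change from 15 to 120 min from replicate B it was -0.814 over the members, and with the letters exchanged -0.737. These points share libraries, and genes are not independent replicates, so the values are descriptions. The share of members called below 0.2 was above that of all genes there while the medians lay close, and no test of either was made. Fhl2 (NTR 0.678) and Pxn (0.524) had a high NTR without a called fall, unlike Itga5 (0.722).

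**Figure D4:**
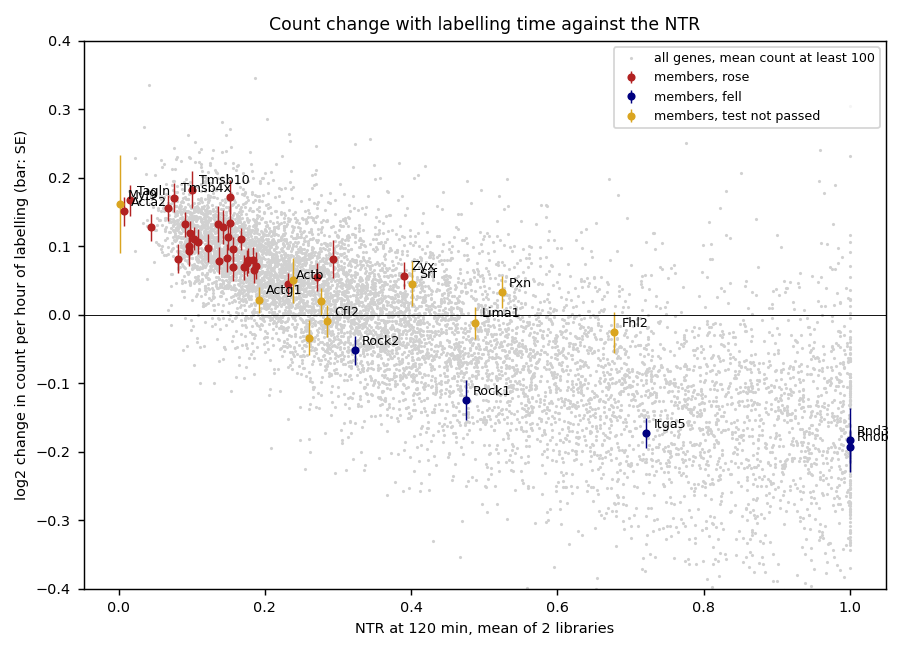
Trend in total RNA (log2 CPM per hour of labelling, edgeR) against NTR at 120 min (fraction), members over all genes. Members with an NTR below 0.2 lie above 0, and Itga5, Rhob and Rnd3 lie below -0.15.

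Comparing the longest with the shortest labelling, 19 members were higher at 120 than at 15 min (7.93% of all genes) and 3 were lower (11.3% of all genes) by edgeR. With library size in place of TMM the split was 7 and 4, and 0 members were called on the label-scaled counts (5 at an unadjusted p below 0.05). The 22 calls became 9 without 120 min A, 5 without 120 min B, 4 without 15 min A and 9 without 15 min B, and 35 without either no4sU library, which enter its spread and scaling but not its fold change. Cfl1 (0.21 ± 0.0519, adjusted p = 0.00924), Tmsb4x (0.29 ± 0.0536, adjusted p = 0.00113) and Vim (0.18 ± 0.0478, adjusted p = 0.011) were among the higher, and Rhob (-0.37 ± 0.0573, adjusted p = 0.000308), Itga5 (-0.30 ± 0.0528, adjusted p = 0.000897) and Itgb3 (-1.28 ± 0.383, adjusted p = 0.0245) were the lower. Of the 49 members, 35 had both 120 min libraries above both 15 min libraries (36.4% of all genes) and 7 had both below (35.5%).

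Against the unlabelled cells, edgeR called 0 members at 15 min, 0 at 30 min and 0 at 60 min (0%, 0% and 0.0173% of all genes). At an unadjusted p below 0.05 there were 7, 4 and 8 (618, 670 and 895 of all 11564 genes), and DESeq2 also called 0 at each. Without no4sU A the calls were 2, 1 and 5, and without no4sU B 14, 17 and 14. At 90 min Tln1, Itgb1, Myh9 and Flna were higher (0.45% of all genes) and Rnd3 was lower (0.943%, and 1.39% in either direction). No member was called without either 90 min library, whereas 25 were without no4sU A and 17 without no4sU B. At 120 min 23 members were higher (5.43%) and 3, Rnd3, Rhob and Itga5, were lower (8.78%). The split was 33 and 5 without no4sU A and 17 and 3 without no4sU B, and with library size in place of TMM it was 5 and 3. The 26 calls became 8 without 120 min A and 7 without 120 min B, and 0 with these 2 groups alone in the fit or on the label-scaled counts (20 and 5 at an unadjusted p below 0.05). These 5 comparisons share the no4sU libraries. Leaving out either of them also raised the calls over all genes, at each duration. Larger member counts in those fits are therefore not particular to the set. Rnd3 had a log2 difference of -0.47 ± 0.101, adjusted p = 0.0212 at 90 min and -0.49 ± 0.0985, adjusted p = 0.00318 at 120 min. Itga5 differed by -0.30 ± 0.0526, adjusted p = 0.000981 and Rhob by -0.25 ± 0.0573, adjusted p = 0.00759 at 120 min.

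A wider list of 89 symbols of the same pathways, without the members, was read beside them, and 86 were in the table. Over 75 of its genes the median NTR at 120 min was 0.281, between that of the members (0.169) and that of all genes. In the trend 29 of 80 tested genes rose and 15 fell by edgeR (18.3% and 19.5% of all genes). With library size in place of TMM 16 rose and 17 fell, and on the label-scaled counts 5 and 5. The Arp2/3 complex, which nucleates branched actin, had 7 of 9 genes rising (3 by library size, 0 label-scaled), and the capping, severing and monomer group also 7 of 9 (5 and 0). Bundling and membrane links had 5 of 7 rising (2 and 2). Adhesion signalling had 1 rising and 6 falling of 16 (1 and 8 by library size, 2 and 1 label-scaled). At 120 against 15 min 11 of 81 were higher and 6 lower (7.93% and 11.3% of all genes). That balance turned to 7 and 12 with library size, and became 1 and 1 on the label-scaled counts. It was 2 and 3 without 15 min A or without 120 min B, 5 and 4 without 120 min A, 6 and 4 without 15 min B, and 24 and 13 with these 2 groups alone or without either no4sU library. Of the genes named next, only Wasl passed on the label-scaled counts, and Itgb7 did not pass with library size. The largest were Arpc3, an Arp2/3 subunit (0.30 ± 0.061, adjusted p = 0.00216), Dstn, destrin, a cofilin relative (0.29 ± 0.0554, adjusted p = 0.00151), and the integrin Itgb7 (0.27 ± 0.0803, adjusted p = 0.0245). The lowest were Wasl, the N-WASP activator of Arp2/3 (-0.50 ± 0.0753, adjusted p = 0.000234), the Srf cofactor Mrtfb (-0.48 ± 0.0843, adjusted p = 0.000847) and Ppp1r12a, the targeting subunit of myosin phosphatase (-0.42 ± 0.0792, adjusted p = 0.00129). Their NTR at 120 min was 0.702, 0.891 and 0.726, and that of the other Srf cofactor in the table, Mrtfa, was 0.906. Both cofactors fell in the trend (Mrtfb -0.24 ± 0.0335, adjusted p = 2.44e-07; Mrtfa, named after its values were seen, -0.14 ± 0.0372, adjusted p = 0.00229, edgeR; label-scaled slopes -0.07 and 0.02, neither called), while Srf itself had an NTR of 0.401 and no call.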

How the data were processed

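RNA of NIH-3T3 cells was measured by SLAM-seq in 12 libraries (6 groups of 2). Groups and letters A and B came from the sample titles, and columns were matched to samples by name, with 0 columns of other samples. The submitters' processing notes name cutadapt, Bowtie2 2.3.0 and STAR 2.7.10b; genome build, annotation, counting tool and strand use were not given in the sources used here. Estimated counts per gene and library were deposited by the authors in 1 table, not scaled between libraries, of which 20.4% were not whole (tolerance 1e-06). Paralogs and overlapping genes may share reads in them. The NTR was deposited as a fraction per labelled library, per the file headers as a posterior maximum, used here, with the 0.05 and 0.95 quantiles and the mean. The deposited alpha and beta columns, each a score without fixed range, were not used. A deposited gene length in bases served for levels per kilobase.

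The members and lists were chosen with earlier results of these data known. All members may be named; CPM in every library are given for the 12 with the largest trend among those past the threshold, and for extremes of NTR, paralogs and Srf. The pathway list was read by its counts and median, with the 3 largest changes named in each direction. A comparison within 1 group of members is not reported here.

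Counts were rounded and tested with edgeR 4.0.16 in R 4.3.3: filterByExpr (11564 genes), TMM (factors 0.970 to 1.02), and the quasi-likelihood test over all 12 libraries in 1 fit, with no covariate (biological coefficient of variation 4.44%). The trend used labelling time in hours over the 10 labelled libraries (11526 genes, 2.70%). An SE is the absolute log2 change over the square root of F. P-values were adjusted by Benjamini-Hochberg over all genes tested, with a threshold of 0.05. Library totals of 9917026 to 13739380 reads set the precision, and no interval covers the division of reads between genes. Summaries of the NTR used genes averaging 100 counts or more. Gene coordinates are those of GENCODE M21 (GRCm38), matched by Ensembl ID for 51 of 51 members, and promoters those of RefSeq (GRCm38.p6). The count script was tested on simulated data. Alternatives were DESeq2 1.42.0, its size factors, library size alone, no filter, the replicate letter as a block, each library left out, 2 groups alone, log2 of time, no4sU as time 0, and the labelled share scaled up. Under library size alone the median of all genes moved by -0.0307 log2 per hour in the trend and by -0.0513 at 120 against 15 min. Figures were drawn with matplotlib 3.10.9, and tables handled in Python 3.11.15 with pandas 2.3.3, scipy 1.17.1 and numpy 2.4.6.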

Additional observations from a re-analysis of the deposited data

How the results depend on the processing

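Main results that moved did so as follows. Members called against no4sU were 0 at 15 min (0 to 14 with a library left out), 0 at 30 min (0 to 17), 0 at 60 min (0 to 14; 3 with no filter), 5 at 90 min (0 to 25; 12 with no filter) and 26 at 120 min (7 to 38). The last became 8 with library size alone, and 0 both with these 2 groups alone and with the labelled share scaled up. The 22 calls at 120 against 15 min became 35 with these 2 groups alone, 11 with library size alone, 0 with the labelled share scaled up, and 4 to 35 with a library left out. The 40 calls in the trend became 9 with the labelled share scaled up (3 higher: Myl12b, Pxn and Zyx; 6 lower: Actg1, Itga5, Itga6, Itgb3, Rock1 and Rock2). This scaling takes the relation of change with NTR to 0 by construction, and the library factors it needed, written as a loss of labelled reads against 15 min, were 8.80% to 11% at 30 min and 34.1% to 35.6% at 120 min. Against no4sU, the reference for the comparison with unlabelled cells, they were -29.7% (A) and -2.82% (B) at 15 min. There they were 30.5% (A) and 32.1% (B) at 120 min, so the factors depend on the reference. Among members called in the trend with or without it, the scaling changed the sign of Actb (-0.0122), Actg1 (-0.0505), Actn1 (-0.0024), Cnn2 (-0.0354), Cnn3 (-0.0028), Itgav (-0.0163), Myh10 (-0.0043), Myl6 (-0.0028), Parva (-0.0103), Pfn1 (-0.0100), Rhob (0.0101), Rnd3 (0.0278), Tagln2 (-0.0128), Tpm1 (-0.0020), Tpm2 (-0.0175) and Vcl (-0.0089, all log2 per hour). With no4sU as time 0, Rock2 changed sign (0.0008) and 35 members were called, with Actb, Itgb3, Pfn1, Rock1, Rock2 and Zyx lost and Myl9 gained. DESeq2 and its size factors kept the side of the threshold for all 51 trends, library size alone for 38 and log2 of time for 45, all but Actb, Cnn2, Cnn3, Myh9, Rock2 and Zyx. Leaving out each labelled library in turn kept 492 of 510 gene-by-library calls. The median NTR at a mean count of at least 1000 was 0.0800 at 60 min and 0.1620 at 120 min. The median half-life was 474.2 min from the NTR at 60 min and 439.3 to 459.7 min with a 120 min library left out. From the loss of old RNA it was 322.5 min, over only the 25 members whose old CPM fell by more than 2 SE. For those same 25 the NTR at 120 min gave a median of 275.5 min. The letters A and B were not taken to pair the samples. Their A-to-B differences correlated between groups at -0.126 to 0.148, which cannot show whether the samples were paired. The fit with the replicate block called 40 members in the trend, 21 at 120 against 15 min and 26 at 120 min against no4sU. The cause of these shifts was not tested. Depth limits Cnn1, Itgb3 and Myl9, the last with intervals reaching 0.0445 at 120 min.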
